A study of Mus musculus with 6 samples.

Results

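The probes examined here were those that gave a signal above background in fetal testes with active NOTCH1 and in none without it. A probe was a member when its detection p was under 0.05 on all 3 Overexpressor arrays and 0.05 or more on all 3 Control arrays, and its mean-scaled signal was higher in the overexpressor than in the control in every dam. The rule was met by 71 of 45281 probes, or 0.157%. The mirrored rule, with the groups exchanged, was met by 52 probes, or 0.115%, which is the count the same arrays give in the other direction. The set was 1.37 times the size of its mirror image. That ratio rests on single arrays: without Overexpressor 3 the counts were 223 and 82, without Control 1 they were 146 and 165, and without Control 3 they were 141 and 160. Over all probes, 9.24% were higher in the overexpressor of every dam. Members were chosen by these detection p-values and signals, so their values are described below and not tested, and nothing is read from these shares.

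Overexpressors were Amh-cre;RosaNICD/+ fetuses, which carried a Cre transgene under the Amh promoter and 1 RosaNICD allele, a conditional allele of the NOTCH1 intracellular domain. Controls were RosaNICD/+ littermates with the same allele and no Cre. The strain background was mixed B6/CD1 and the stage embryonic day 14.5, and each of 3 dams gave 1 fetus to each group. Each sample was the testis pair of 1 fetus, so n = 3 animals per group. Amh-cre acts in Sertoli cells, the supporting cells of the testis cord, while the RNA came from the whole testis. Because Amh-cre was present in overexpressors alone, an effect of the transgene itself and an effect of NOTCH1 cannot be told apart. In whole-testis RNA, a change in the number of cells of a type and a change in RNA per cell cannot be told apart either.

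NOTCH1 is a membrane receptor whose intracellular domain is cut free when a ligand on a neighbouring cell binds, enters the nucleus and acts there with the DNA-binding protein RBPJ on genes such as those of the HES and HEY families. In the fetal testis, germ cells lie enclosed by Sertoli cells and normally do not enter meiosis, whereas fetal ovarian germ cells do so under retinoic acid, with Stra8 among the first genes to come on. Fetal Leydig cells outside the cords make androgens.

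Between 19459 and 20285 probes per array, 43.0 to 44.8% of the table, were detected. Intensities below are those of the authors' processed table, in which every array has a mean of 387. The lowest intensity called detected was 109, 116 and 119 on Overexpressor arrays 1 to 3, against 114, 116 and 123 on Control arrays 1 to 3, numbered by dam. The Sertoli markers Sox9, Amh, Dhh, Cst9 and Aard, the germ cell markers Ddx4, Dazl and Pou5f1 and the Leydig markers Insl3 and Cyp17a1 were detected on all 6 arrays.

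Of the 71 member probes, 59 carried 1 gene symbol each, for 59 different genes of 19057 on the array, and 12 were unnamed in the platform annotation. Protein-coding genes made up 56 of the 59, and 3 lay on the X chromosome, where 3.53% of all named probes lie. Only 5 probes had a log2 ratio above 0.5 in every dam, those of Cidea, Lpar3, 1700018G05Rik, Stra8 and Cyp4f15. The mirrored set had 1 such probe, for Krt42, a keratin. In 44 members the smallest of the 3 within-dam log2 ratios was under 0.1, against 10 in the mirrored set. With each set ranked by this ratio, every member from rank 17 to rank 51 lay below the mirrored probe of its rank. The lowest detected intensity was higher on the Control array than on the Overexpressor array of every dam. A mirrored probe had to span the gap between these limits and a member did not, so nothing is read from this comparison of the sets. Most members lay just above the detection limit in overexpressors and just below it in controls, while the 5 leading probes stood clear of it.

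Promoter windows of Lpar3, 1700018G05Rik, Stra8 and Cyp4f15, 4 of the 5 leading members, show what letters lie around their start sites. The windows below are from RefSeq on GRCm38.p6, with 250 bases before and 50 after the annotated start, all on the plus strand, at chr3:146220711-146221010 for Lpar3, chrX:102928122-102928421 for 1700018G05Rik, chr6:34920698-34920997 for Stra8 and chr17:32685409-32685708 for Cyp4f15. Capitals mark TGGGAA, the core of the sequence bound by RBPJ, and AGGTCA, an element bound by nuclear receptors, a family that includes the retinoic acid receptors.
Lpar3: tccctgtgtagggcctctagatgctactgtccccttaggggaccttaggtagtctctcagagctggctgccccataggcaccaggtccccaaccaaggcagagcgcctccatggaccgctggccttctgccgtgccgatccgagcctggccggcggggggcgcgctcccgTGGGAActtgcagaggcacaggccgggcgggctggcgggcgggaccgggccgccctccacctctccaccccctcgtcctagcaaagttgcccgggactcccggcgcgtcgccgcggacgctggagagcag
1700018G05Rik: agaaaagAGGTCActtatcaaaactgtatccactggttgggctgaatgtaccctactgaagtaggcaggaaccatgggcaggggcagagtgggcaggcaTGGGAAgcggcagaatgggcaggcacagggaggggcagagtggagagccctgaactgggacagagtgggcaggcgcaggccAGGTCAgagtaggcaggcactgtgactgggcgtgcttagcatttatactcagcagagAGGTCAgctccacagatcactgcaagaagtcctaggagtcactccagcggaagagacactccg
Stra8: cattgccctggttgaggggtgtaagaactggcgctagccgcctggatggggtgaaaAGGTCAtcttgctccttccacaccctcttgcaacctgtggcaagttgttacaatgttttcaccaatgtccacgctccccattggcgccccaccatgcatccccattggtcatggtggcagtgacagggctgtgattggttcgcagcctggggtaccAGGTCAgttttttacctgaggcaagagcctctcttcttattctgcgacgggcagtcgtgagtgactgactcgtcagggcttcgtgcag
Cyp4f15: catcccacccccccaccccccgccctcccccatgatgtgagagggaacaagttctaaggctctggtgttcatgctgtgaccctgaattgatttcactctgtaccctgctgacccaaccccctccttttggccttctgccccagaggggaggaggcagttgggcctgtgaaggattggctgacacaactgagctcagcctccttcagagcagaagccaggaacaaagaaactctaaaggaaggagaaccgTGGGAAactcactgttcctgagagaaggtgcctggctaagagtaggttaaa
TGGGAA began 80 bases before the start of Lpar3, 151 before that of 1700018G05Rik and 1 before that of Cyp4f15, and it was not in the Stra8 window. AGGTCA began 194 and 38 bases before the start of Stra8, and at 243, 70 and 13 bases before that of 1700018G05Rik. Windows were found for 50 of the 59 member genes, 68 windows in all. Read on both strands, TGGGAA (reverse TTCCCA) was in 28 of the 68 windows, or 41.2%, against 28.2% of 39 windows of mirrored genes, 24.0% of windows of all genes on the array and 25.6% of all 32851 promoter windows. AGGTCA (reverse TGACCT) was in 20.6% of member windows, against 10.3% of mirrored and 16.3% of all windows. CACGTG, the E-box read by HES and HEY proteins among others, was in 7.35% of member windows, against 10.3% of mirrored and 7.15% of all windows, and it can share letters with TGGGAA. Windows of 1 gene overlap, and a match is a run of letters and not a bound site.

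Cidea (ILMN_1215446) encodes a protein of the lipid droplet that lets droplets fuse and grow, best known from brown fat. Its probe read 247, 247 and 205 in Overexpressor testes of dams 1 to 3, against 109, 109 and 113 in Control testes. All 3 Overexpressor values lay well above all 3 Control values, and the Control values lay within a few units of each other. The mean within-dam log2 ratio was 1.08 ± 0.18 (SD, n = 3). Because no Control array measured it, the fold is a lower bound. Such bounds set the mean over all Overexpressor replicates against, on each Control array, the higher of the probe's own value and the lowest detected value. Cidea was at least 1.97-fold higher on the processed scale, with group means of 233 and 110, and at least 4.75-fold after background correction. Cidea had no other probe on the array.

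Stra8 (ILMN_1239462), the retinoic acid-induced gene that starts meiosis in germ cells, had the widest spread among the 5. Its probe read 473, 838 and 167 in Overexpressor testes of dams 1 to 3, against 88.1, 109 and 115 in Control testes. The groups did not overlap, but Overexpressor 3 lay far closer to the Control values than the other Overexpressors did. The mean log2 ratio was 1.97 ± 1.27 (SD, n = 3), with 2.43, 2.95 and 0.54 in the 3 dams. The bound was at least 3.43-fold on the processed scale and at least 9.20-fold after background correction. No other Stra8 probe was on the array. Beside this, the summed intensity of 22 general germ cell genes was 13630 to 22190 in Overexpressor testes, against 19460 to 34480 in Control testes. The sum was lower in the overexpressor of every dam. Dppa4 alone read 2836, 4670 and 3173 in Overexpressor testes, against 6169, 10820 and 5451 in Control testes. By limma, log2 fold changes were -0.05 for Dazl, -0.16 for Pou5f1 and -0.24 for Ddx4. Of the 22 genes 17 lay below 0, with a median of -0.68. The part of germ cell content in the Stra8 values was not tested.

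Lpar3 (ILMN_3009440) encodes a receptor for lysophosphatidic acid, a lipid signal, and is known for its part in embryo implantation in the uterus. Its probe read 344, 336 and 182 in Overexpressor testes, against 101, 104 and 112 in Control testes. Overexpressor 3 was again the lowest of its group and still above every Control. The mean log2 ratio was 1.39 ± 0.59 (SD, n = 3), and the bound was at least 2.34-fold, or at least 5.95-fold after background correction. A second Lpar3 probe, not a member because 1 Control array detected it, read 320, 318 and 170 in Overexpressor testes, against 100, 118 and 119 in Control testes. Its log2 ratio was 1.21 ± 0.61 (SD, n = 3), so both probes placed the overexpressors in the same order of dams.

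Cyp4f15 (a cytochrome P450 of family 4, whose members hydroxylate fatty acids) was the most even of the 5 across Overexpressor arrays by ratio. Its probe read 182, 163 and 177 in Overexpressor testes, against 109, 114 and 113 in Control testes. The groups were separate in every dam, with a log2 ratio of 0.64 ± 0.11 (SD, n = 3) and a bound of at least 1.47-fold, or at least 2.86-fold after background correction. The lowest Control detection p was 0.0887, so it left the set when the detection limit was relaxed to 0.10.

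The clone transcript 1700018G05Rik on the X chromosome was named after its values were seen. It read 163, 192 and 167 in Overexpressor testes, against 95.0, 99.8 and 102 in Control testes. The groups were separate, with a log2 ratio of 0.81 ± 0.12 (SD, n = 3) and a bound of at least 1.47-fold, or at least 2.86-fold after background correction. It lay next but 1 to another member, Dmrtc1a, a member of the DMRT-like family, with 1 gene between them. No other pair of member genes lay within 10 genes of each other. The Dmrtc1a probe read 124, 128 and 126 in Overexpressor testes, against 112, 112 and 116 in Control testes, a far smaller difference. The 3 other Dmrtc1a probes had mean log2 ratios of 0.23, 0.08 and 0.01, with -0.08, -0.25 and 0.07 in dam 3. None of them was detected on all 3 Overexpressor arrays. Dmrtc1c1, in the same stretch of the X chromosome and also named after its values were seen, was detected on all 6 arrays, at 486, 717 and 277 in Overexpressor testes, against 356, 338 and 320 in Control testes. It was higher in the overexpressors of dams 1 and 2 and lower in that of dam 3.

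Detection decided at a fixed p can turn on small steps, so the same rule was read at limits of 0.01, 0.05 and 0.10. Passing at all 3 limits were 6 members, namely Cidea, Lpar3, 1700018G05Rik, Stra8, Eppin and 1 unnamed probe, against 3 mirrored probes, Krt42, C1ql2 and 1 unnamed probe. Eppin, a protease inhibitor of testis and epididymis that coats sperm, read 126, 129 and 146 in Overexpressor testes, against 109, 105 and 116 in Control testes. These groups were separate by a narrow margin, with a log2 ratio of 0.28 ± 0.06 (SD, n = 3). Another Eppin probe was detected on all 3 Control and all 3 Overexpressor arrays, with a log2 ratio of 0.29 ± 0.06 (SD, n = 3). A further Eppin probe had a mean log2 ratio of -0.02. The members nearest inside the limit were Dnajb13 and Evi2a, with a highest Overexpressor detection p of 0.0492, and Plbd1 with 0.0481. On the Control side Wt1os, Scn3a and Plcz1 each had a lowest p of 0.0502. Just outside, Vezt, Naa35 and Olfr606 missed on an Overexpressor array at 0.0502, and Fam32a, Actl6b and Syne1 were detected on a Control array at 0.0492.

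The detection condition alone was met by 85 probes, of which 14 failed the direction, and by 52 in the mirror, of which 0 failed. The lowest detected intensity was higher on the Control array than on the Overexpressor array of every dam, so a probe of the mirrored kind met the direction by construction. Without the direction, 85 probes stood against 52. Another 217 probes were detected on all 3 Overexpressor arrays and 1 Control array, and 16579 on all 6. Of those 217, 80 were higher in the overexpressor of every dam.

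The other members had weak signals. Over the 66 members after the first 5, the mean Overexpressor intensity ran from 116 to 155 with a median of 123, and the mean log2 ratio from 0.04 to 0.45 with a median of 0.14. Groups did not overlap in 35 of all 71 members, where 2.95% of all probes had no Control value above the lowest Overexpressor value, and in 47 of the 52 mirrored probes. The rule used this contrast, so nothing is read from these counts. The difference exceeded 2 bead standard errors in every dam for 15 of the 71 members and 14 of the 52 mirrored probes. A bead standard error measures spread within 1 array and not between fetuses. The share over all probes was not counted, so nothing is read from these counts either. Overexpressor 3 gave the highest value of the 3 for 41 of the 71 members and the lowest for 10. The median intensity of undetected probes also rose over Overexpressor arrays 1 to 3, at 94.6, 101 and 104.5. Nothing is therefore read from the order of the arrays in these dim members. Stra8, Lpar3 and Cidea were each lowest on Overexpressor 3.

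Further members act in sperm and germ cells. Dnajb13, a co-chaperone of the sperm flagellum, read 115, 120 and 119 in Overexpressor testes, against 101, 111 and 109 in Control testes. Plcz1, the sperm phospholipase that activates the egg, read 126, 120 and 131 in Overexpressor testes, against 111, 114 and 122 in Control testes. Suv39h2, a histone H3 lysine methyltransferase prominent in germ cells, read 137, 120 and 121 in Overexpressor testes, against 112, 111 and 108 in Control testes. The Dnajb13 and Suv39h2 groups were separate, while Control 3 of Plcz1 lay above Overexpressor 2. No array detected the other Suv39h2 probes, whose mean log2 ratios were -0.05, 0.02 and -0.02. Nor was the other Plcz1 probe detected on any array. That Plcz1 probe was lower in the overexpressor of every dam, with a mean log2 ratio of -0.03.

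Member probes of genes known from nerve and sense organs also lay near the detection limit. Tecta, a protein of the tectorial membrane of the inner ear, read 138, 142 and 146 in Overexpressor testes, against 114, 108 and 111 in Control testes. Nrcam, a cell adhesion molecule of neurons, read 148, 156 and 128 in Overexpressor testes, against 106, 114 and 113 in Control testes. Crhbp, which binds corticotropin-releasing hormone, read 142, 144 and 121 in Overexpressor testes, against 104, 102 and 103 in Control testes. These 3 probes were separate between groups, with bounds of at least 1.21-fold for Tecta, 1.22-fold for Nrcam and 1.15-fold for Crhbp. The 3 other Nrcam probes were detected on none of the 6 arrays, with mean log2 ratios from 0.06 to 0.11. Cacng5, a channel and glutamate-receptor subunit, and Ptprs, a receptor tyrosine phosphatase, had log2 ratios of 0.18 ± 0.09 and 0.14 ± 0.02 (SD, n = 3). Of 6 other Ptprs probes, 3 were detected on all 3 Control arrays. The brightest averaged 4140 in Overexpressor testes against 4255 in Control testes, with a log2 ratio of -0.03 ± 0.11 (SD, n = 3). The others of these 3 had mean log2 ratios of 0.07 and 0.12.

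Of the members known from immune cells, Clec12b, a C-type lectin receptor, read 140, 135 and 127 in Overexpressor testes, against 109, 103 and 102 in Control testes, a bound of at least 1.13-fold. Il1rn, the interleukin-1 receptor antagonist, read 113, 118 and 120 in Overexpressor testes, against 96.8, 104 and 105 in Control testes. Both probes were separate between groups, but the bound for Il1rn was under 1, so no fold is given. The 3 other Il1rn probes were detected on none of the 6 arrays, with mean log2 ratios of -0.05, -0.12 and -0.11. Runx1, a transcription factor of blood formation that fetal granulosa cells also make, read 113, 122 and 123 in Overexpressor testes, against 111, 109 and 113 in Control testes. Those Runx1 groups met at the border, and its other probe was detected on none of the 6 arrays, with log2 ratios of -0.11, 0.01 and -0.11 in the 3 dams.

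Among members with roles in many cells, Cdc6, which licenses DNA replication, read 114, 117 and 124 in Overexpressor testes, against 106, 102 and 106 in Control testes. Cited4, a partner of the coactivators CBP and p300, read 122, 132 and 142 in Overexpressor testes, against 106, 116 and 111 in Control testes. Nans, a sialic acid synthase, read 124, 141 and 149 in Overexpressor testes, against 113, 116 and 119 in Control testes. Each was separate between groups. The other Nans probe, detected on all 6 arrays, averaged 990 in Overexpressor testes against 913 in Control testes. Its log2 ratio was 0.113 ± 0.115 (SD, n = 3). Cdc6 also had another probe detected on all 6 arrays, as did Macrod2, Swt1, Dcbld2 and Prpf3 below. The others of the kind, with log2 ratios of 0.11 to 0.18, were C1qtnf6, a secreted protein of the C1q and TNF-related family, Macrod2, which removes ADP-ribose from proteins, Swt1, an RNA endonuclease, Dcbld2, a transmembrane receptor, Prpf3, a splicing factor, and Cyp11b2, the aldosterone synthase of the adrenal cortex.

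So that every named member is accounted for, the remaining 32 are 2900009J06Rik, Crxos, Ern1, Evi2a, Hecw2, Scn3a, Wt1os, Galr2, Mdm1, G6pc2, Rnf40, Mcpt9, Ehd3, Septin6, Ramp1, Sh3rf1, Ada, Adgrg3, Gucy2g, Ung, Zfp617, Plbd1, Elmod3, Gimap1, Zc3hav1, Pcdh9, Rragd, Ankrd13c, Dlx3, Ncln, Elf2 and Jak1. Among them are Galr2, a galanin receptor, Scn3a, a sodium channel, Mcpt9, a mast cell protease, Dlx3, a homeobox factor of skin and placenta, and Wt1os, a transcript antisense to Wt1. Their mean log2 ratios ran from 0.04 to 0.23.

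Whether a gene, rather than a probe, was undetected in controls could be read for the 40 member genes with other probes. Of these, 21 had another probe detected on all 3 Control arrays, 6 more had one detected on 1 or 2 Control arrays at most, and 13 had none. For those 21 genes the data go against the description of a transcript detected with active NOTCH1 alone, and it describes the probe. Of the 6, Cacng5, G6pc2 and Elmod3 each had another probe detected on 2 Control arrays, which also goes against it. That Cacng5 probe was detected on all 3 Overexpressor arrays too. For Lpar3, Dmrtc1a and Cyp11b2, with another probe detected on 1 Control array, the description is not settled. The other probes of Cyp11b2, G6pc2 and Elmod3 were detected on 0 Overexpressor arrays, and those of G6pc2 and Elmod3 were lower in the overexpressor of every dam. The other 19 genes, Cidea, Stra8 and Cyp4f15 among them, had a single probe. Over all 59 genes, 32 had no probe detected on any Control array.

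Of the 97 other probes, 0 were detected on all 3 Overexpressor arrays and no Control array. Detected on all 6 arrays were 34, from 21 genes, of which 11 were higher and 7 lower in the overexpressor of every dam. Over all 16579 probes detected on all 6 arrays, 16.7% were higher and 22.7% lower in every dam. Those higher included probes of Septin6, a filament-forming GTPase, with log2 ratios of 0.38 ± 0.11 and 0.43 ± 0.13, of Cdc6 with 0.33 ± 0.13, of Sh3rf1 with 0.34 ± 0.20, of Ung, the uracil-DNA glycosylase, with 0.33 ± 0.25, and of Eppin with 0.29 ± 0.06 (SD, n = 3). Those lower included all 4 other probes of Prpf3, from -0.29 to -0.09, and the other probe of Rnf40 with -0.18. For Prpf3 and Rnf40 the member probe and the well-detected probes therefore ran in opposite directions. Septin6, Sh3rf1, Ung and Rnf40 were named after their values were seen.

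Genes of the pathways around the leading members that were no members themselves were tested with limma's two-sided moderated test, adjusted by Benjamini-Hochberg over all 19889 probes tested, of which 0.407% were higher and 0.161% lower in Overexpressor testes. Among 15 genes of meiotic entry and prophase, 0 passed, 4 had an unadjusted p under 0.05, and 0 passed with dam as a block; 12 lay above 0 and 3 below, and the list's median log2 fold change was 0.29, against -0.0044 over all 10940 genes. Rec8, the meiotic cohesin, read 608, 1035 and 312 in Overexpressor testes, against 159, 171 and 189 in Control testes. Every Overexpressor value was above every Control value, and the order of dams was that of Stra8. Its log2 fold change was 2.50 ± 0.42 (SE, limma, adjusted p = 0.0510), short of the threshold. Without Overexpressor 3 the adjusted p was 0.00621, and without any other single library it was 0.0585 to 0.217. Syce2 and Terb1, of the synaptonemal complex and the telomere attachment of meiotic chromosomes, had log2 fold changes of 0.57 ± 0.13 (limma, adjusted p = 0.176) and 0.61 ± 0.19 (adjusted p = 0.331). Spo11, the last of the 4 with an unadjusted p under 0.05, was lower, at -0.66 ± 0.28 (SE, limma, adjusted p = 0.514). It read 537, 531 and 341 in Overexpressor testes, against 502, 816 and 772 in Control testes. The summed intensity of these 15 genes was 5645, 8057 and 3662 in Overexpressor testes, against 4264, 4882 and 4256 in Control testes, so dam 3 ran the other way.

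Of 12 genes of retinoic acid transport, metabolism and response, 1 rose and 0 fell. Stra6, the membrane receptor that takes up retinol, read 256, 267 and 229 in Overexpressor testes, against 133, 141 and 169 in Control testes. The groups were separate, and the log2 fold change was 1.48 ± 0.19 (SE, limma, adjusted p = 0.0164). Without Overexpressor 1, Overexpressor 2, Control 1 or Control 2 the adjusted p was 0.0594 to 0.102, and with dim probes kept it was 0.0622. Aldh1a2, which makes retinoic acid, had 0.66 ± 0.15 (adjusted p = 0.169) and the receptor Rarb 0.65 ± 0.19 (adjusted p = 0.306). The list's median was 0.04.

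Around Cidea, 0 of 13 lipid droplet genes passed by limma, with or without dam as a block, and 0 had an unadjusted p under 0.05. The median was 0.03, and the smallest p values were those of Plin1, the droplet coat protein of fat cells, at 0.39 ± 0.17 (SE, limma, adjusted p = 0.534), Fitm2 at 0.24 ± 0.13 (adjusted p = 0.63) and Dgat2 at 0.47 ± 0.36 (adjusted p = 0.753). Among 4 brown fat and adipocyte genes, 0 passed by limma and 2 had an unadjusted p under 0.05, with a median of -0.16. Cox7a1, a subunit of respiratory complex IV, read 609, 534 and 619 in Overexpressor testes, against 299, 241 and 388 in Control testes. It was higher in every dam, at 1.24 ± 0.24 (SE, limma, adjusted p = 0.0833), and with dam as a block the adjusted p was 0.0320. Lpl, the other of those 2 genes, was lower in every dam, at -0.67 ± 0.17 (SE, limma, adjusted p = 0.209). It read 2082, 1943 and 2684 in Overexpressor testes, against 3266, 3467 and 3585 in Control testes. Prdm16 had -0.53 ± 0.36 (SE, limma, adjusted p = 0.7045). Of the 4 genes, 2 lay above 0 and 2 below. Around Cyp4f15, 0 of 4 other CYP4 genes passed by limma in either fit, 0 had an unadjusted p under 0.05, and the median was 0.03. The smallest adjusted p was that of Cyp4v3, at -0.34 ± 0.17 (SE, limma, adjusted p = 0.587).

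Of 11 NOTCH target genes, 2 rose and 0 fell by limma, and the same numbers passed with dam as a block. Above 0 lay 7 and below it 4, with a median of 0.18, and 4 had an unadjusted p under 0.05. Ccnd1, the cyclin D1 gene, had a log2 fold change of 1.66 ± 0.16 (SE, limma, adjusted p = 0.00476) and Hey1, a direct NOTCH target, 1.27 ± 0.15 (SE, limma, adjusted p = 0.00878; 0.0567 without Overexpressor 1). The other HES and HEY genes tested had log2 fold changes of 0.38 for Heyl, 0.18 for Hes1, -0.18 for Hes5, -0.27 for Hes6 and -0.46 for Hey2. Their adjusted p values by limma were 0.602 to 0.871. Of the cells that the testis holds, 26 Sertoli genes gave 1 that rose, Cst9 with 0.83 ± 0.13 (adjusted p = 0.0358), and 1 that fell, Cbln4 with -1.20 ± 0.20 (adjusted p = 0.0474). With dam as a block 4 Sertoli genes fell, the others being Hsd17b3, Sox8 and Hsd17b1. With 1 library left out, whichever it was, the adjusted p was 0.0917 to 0.169 for Cst9 and 0.0585 to 0.208 for Cbln4. Of the 26 genes 16 lay below 0, the median was -0.26 and 12 had an unadjusted p under 0.05. Their summed intensity ran the other way, at 49240 to 55150 in Overexpressor testes, against 39010 to 44480 in Control testes, and Cst9 alone read 14060 to 16050 in Overexpressor testes, against 7637 to 9169 in Control testes. Of 22 general germ cell genes, 1 rose and 0 fell by limma and 9 had an unadjusted p under 0.05, with 17 below 0 and a median of -0.68. Rhox9, a homeobox gene, rose by 1.57 ± 0.21 on the log2 scale (SE, limma, adjusted p = 0.0200), but without Overexpressor 1, Overexpressor 2, Control 1 or Control 3 the adjusted p was 0.0712 to 0.123. With dam as a block 4 fell, namely Nanos2, Dnd1, Dppa4 and Tdrd9, with adjusted p values of 0.0142 to 0.0445 by limma.

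In the 5 granulosa cell genes, 0 passed by limma in either fit and 1 had an unadjusted p under 0.05. The smallest p values there were those of Lgr5 at -1.05 ± 0.22 (SE, limma, adjusted p = 0.121), Esr2 at -0.35 ± 0.19 (adjusted p = 0.634) and Wnt4 at 0.18 ± 0.13 (adjusted p = 0.731). In the remaining lists 0 genes passed by limma in either fit, with unadjusted p under 0.05 in 0 of 8 fetal Leydig, 3 of 7 mesonephros and duct, 1 of 12 endothelial, 1 of 9 macrophage, 0 of 7 red cell, 1 of 8 peritubular myoid and 1 of 4 neuronal genes. Their summed intensity overlapped between groups for Leydig, endothelial, red cell, myoid and neuronal genes, although the neuronal sum was lower in the overexpressor of every dam, at 575, 565 and 633 in Overexpressor testes, against 604.5, 660.5 and 723.8 in Control testes. The sum was lower in every Overexpressor testis for mesonephros genes, at 2846 to 3179 against 3445 to 3653 in Control testes. For the 5 granulosa genes it was lower by a narrow margin, at 783.6 to 827.8 against 838.6 to 875.7 in Control testes. For macrophage genes it was higher by a narrow margin, at 1516 to 1573 against 1442 to 1507 in Control testes. These sums are not corrected for background. The part of these cell types in the members' values was not tested.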

How the data were processed

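Biotin-labelled RNA from the testis pairs of 6 fetuses was measured on Illumina expression BeadChips, 1 array per sample. GenomeStudio 2010.3 is named by the submitters' processing notes. Per the file headers, the deposited raw table holds each probe's mean bead intensity on a linear scale, its count of beads, the standard error of the bead signal and a detection p-value against the array's negative controls. The authors' processed table holds the same intensity multiplied by 1 factor per array, from 0.855 to 1.15. The number of arrays limits the precision.

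The rule was applied to the raw table, each signal divided by its array's mean. Ratios are within dam, as mean ± SD. Of 45281 probes, 34885 carry 1 symbol, 18 several and 10378 none, and 34807 took the current symbol of their Entrez identifier from the GRCm38.p6 table. Probes with several symbols name no gene. The files name no genome build, so coordinates are those of RefSeq windows.

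Lists were tested on log2 values from neqc (offset 16) with limma 3.58.1 in R 4.3.3, using probes detected on at least 3 of 6 arrays. Per gene the probe brightest on average was used. The fit was tested on simulated data. Tables were made with Python 3.11.15. The labels give a dam to each sample: same-dam deviations correlated at 0.252 to 0.426, and other pairs at -0.279 to -0.0138. A fit with dam as a block was the alternative.

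Members and the 16 lists (277 genes) were chosen with earlier results of these data known. Members named are the 3 given markers, the 25 symbols ranked by smallest within-dam ratio, list members and those nearest the limits. Of other genes, those passing at 0.05 are named and, in the lists around the leading members, genes among the 3 smallest p. Spo11 and the HES and HEY genes other than Hey1 were added after their values were seen.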

Additional observations from a re-analysis of the deposited data

How the results depend on the processing

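The member count stayed within 1.5 times of 71 under each setting with all 6 arrays: 65 at a detection limit of 0.01 and 84 at 0.10, but with 13 and 19 probes shared, so the limit decides most of the membership. Median scaling gave 83, no scaling 85, and neqc values for the direction 83, each holding all 71. Leaving out 1 array gave 138 to 223 members and 82 to 165 mirrored probes. The members were 223 against 82 mirrored probes without Overexpressor replicate 3, but fewer than the mirrored without Control replicate 1 (146 against 165) and without Control replicate 3 (141 against 160). The mirrored count was 34 at 0.01 and 99 at 0.10, so at 0.10 it exceeded the 84 members. Without scaling it was 38.

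The limma test called 113 probes, 157 with the replicate block, 151 without background correction, 157 on the authors' processed table and 67 with dim probes kept. Leaving out 1 array gave 32 to 101. Among list genes the replicate block added the calls of Cox7a1, Nanos2, Dnd1, Dppa4, Tdrd9, Hsd17b3, Sox8 and Hsd17b1 and changed no other. Of 59 named members, 1 changed sign under any setting: the log2 difference of Plbd1 ran from -0.0108 (without Control replicate 1) to 0.0861 with 1 array left out. The log2 fold change of Cyp4f13 ran from -0.0184 (without Control replicate 2) to 0.218. The cause was not tested. Slide as a block was not run, since the files name no slide. Signals near the detection limit bound most members' ratios.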

Other observations

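Probes that missed the set because 1 Control array detected them included larger differences than most members. Of the 80 such probes higher in every dam, 6 had a smallest within-dam log2 ratio above 0.5, namely 4933402E13Rik with 1.20, Rnf138rt1 with 1.16, Stac2 with 0.93, Tpbgl with 0.84, Zfp459 with 0.74 and the second Lpar3 probe with 0.52. They were named after their values were seen.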
